A study of Mus musculus with 6 samples.

Results

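The genes described here serve the cytoskeleton, axonal transport and secretion of neurons: Map2, Dst and Tuba4a of the microtubule system, the axonal motor gene Kif1a, the dense-core vesicle genes Ptprn and Scg2, the transmitter release genes Rims1 and Syt2, and the anchoring protein gene Sphkap. They were chosen by name, as 9 genes of the 1118 gene names in the table, whose analysed rows are all of chromosome 1, and Rims1 had 2 rows, so 10 of the 1140 rows belong to them. The authors had tested 8 of the 9 genes, in 9 of the 646 tested rows analysed here, and Syt2 was listed without a test. The samples were mouse retinas at E15.5 (embryonic stage), of C57BL/6 animals. T2Isl1/+ retinas carried 1 copy of a knock-in of Isl1 into Tbr2 (Eomes), and T2fx/+ retinas, which the submitters call wild type, carried 1 copy of the Tbr2fx allele in its place. Each genotype had 3 libraries of total RNA, each a pool of 8 retinas, so RNA came from the whole tissue while the knock-in allele is driven from a gene that only part of the ganglion cells use. The question was whether these genes differed between the genotypes.

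Newborn neurons extend an axon on tracks of microtubules, polymers of alpha and beta tubulin that microtubule-associated proteins stabilise. Kinesin motors carry vesicle precursors along these tracks toward the axon tip. Neuropeptides and granins travel in dense-core vesicles and classical transmitters in synaptic vesicles, whose release is triggered by calcium through synaptotagmins at an active zone that RIM proteins organise. At the stage sampled, ganglion cells are the first retinal neurons to send out axons, while most synapses of the retina form later.

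None of the 8 tested genes was called different between T2Isl1 and T2fx retinas at the authors' q-value (adjusted p-value) under 0.05, against 1.55% of all tested rows, a background so low that 0 calls among these rows says little. At an unadjusted p-value under 0.05 there was 1 row, that of Sphkap, against 3.72% of all tested rows. Of the 9 tested rows, 8 had a lower value in T2Isl1 than in T2fx and 1, a Rims1 row, a higher one, against 45.4% of all 646 tested rows below. Their median log2 fold change (T2Isl1 over T2fx) was -0.08, against 0.01 over all tested rows. With the groups scaled to the summed FPKM of the chromosome 1 rows without lens genes, it was -0.16. This scaling moves all rows alike and leaves other chromosomes out. All 9 tested rows differed by less than 1.5-fold, as did 96.7% of all tested rows. Each group value was a single FPKM estimate (read fragments per kilobase of transcript, adjusted for library size) combined over the libraries of a genotype, so no SD or per-library value stands behind it and depth is unknown. In RNA of whole retina, fewer cells of a type and less RNA per cell cannot be told apart.

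The levels of the genes spanned a wide range. In the authors' deposited table the highest T2Isl1 value, that of Map2, was 180.2-fold the lowest, that of Syt2, and the same pair differed 142.8-fold in T2fx. The order of the 10 rows was the same in both genotypes. Map2 and Kif1a stood well above the median tested row, Dst lay near it, and the other rows lay below. Neighbours in this order, such as Ptprn and the upstream Rims1 row, cannot be called different in level, since no spread is known.

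**Figure D1:**
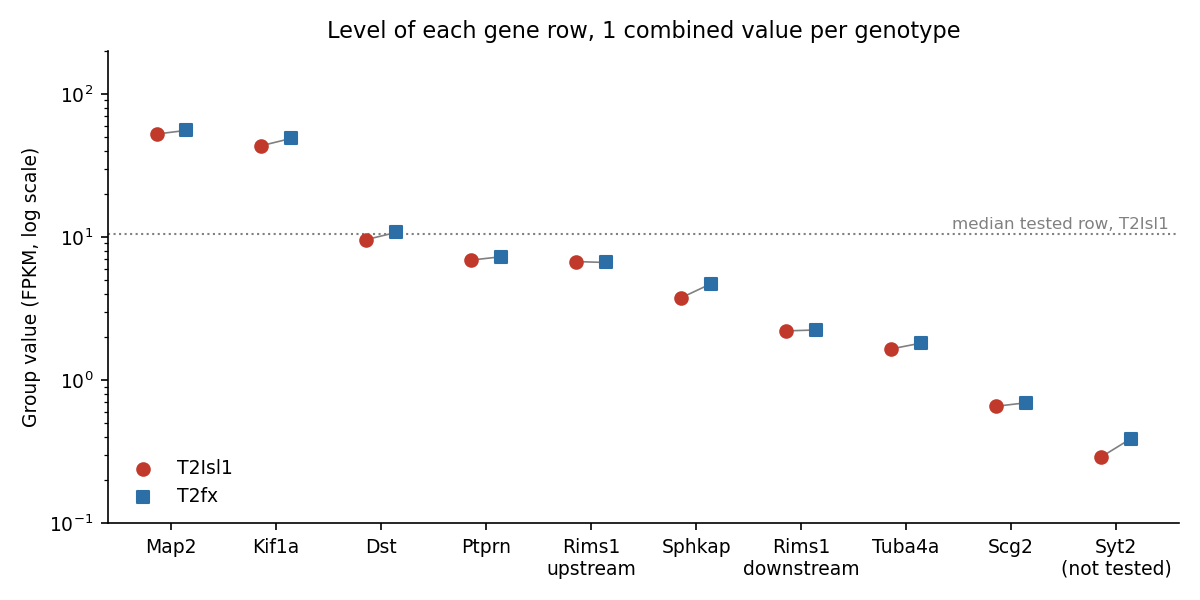
Group value in FPKM (log axis) of each row of the 9 genes, T2Isl1 as circles left of T2fx as squares, ordered by level; there is 1 combined value per genotype and no error bar. Map2 and Kif1a lie above 40 FPKM in both genotypes, Scg2 and Syt2 below 1 FPKM, and the dotted line marks the T2Isl1 median of 10.4 FPKM over tested rows.

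Map2, whose product binds and stabilises microtubules of neurons and is best known from dendrites, was the most abundant of the genes. It lies on chromosome 1 (chr1:66175001-66442584, plus strand, mm10, protein-coding). The authors' deposited table gave 52.3 FPKM in T2Isl1 and 55.5 FPKM in T2fx. This placed Map2 at rank 70 of the 646 tested rows in T2Isl1 and at rank 66 in T2fx. The log2 fold change in the authors' deposited table was -0.08 (unadjusted p = 0.448, q = 1.00). The level of Map2 in T2Isl1 was thus 5.71% lower, a difference that did not pass.

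Dst encodes dystonin, a giant spectraplakin that links microtubules with other cytoskeletal filaments; its loss in mice causes a sensory neuropathy. The row spans chr1:33852052-34308662 (plus strand, mm10, protein-coding). Values in the authors' deposited table were 9.59 FPKM in T2Isl1 and 10.7 FPKM in T2fx, a log2 fold change of -0.16 with an unadjusted p of 0.171. Dst has the longest transcript of the 9 genes, 23.3 kb in the annotation. Its coordinates in the table are those of a merged locus that Bend6 shares, and Bend6 itself had 1.44 FPKM in T2Isl1 and 1.18 FPKM in T2fx in the authors' deposited table.

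Tuba4a encodes an alpha tubulin, one of several related building blocks of the microtubule. The row spans chr1:75210829-75219630 (minus strand, mm10, protein-coding). It had 1.65 FPKM in T2Isl1 and 1.81 FPKM in T2fx in the authors' deposited table, which is -0.13 as a log2 fold change, with an unadjusted p of 0.812. The level of Tuba4a is uncertain in itself, because 1379 of its 3701 annotated exon bases (37.3%) overlap exons of the kinase gene Stk16 on the other strand and whether reads were counted by strand is not stated in the sources used. Stk16, at the same locus in the table, was more abundant, with 26.7 FPKM in T2Isl1 and 23.5 FPKM in T2fx in the authors' deposited table. Alpha tubulin genes also resemble each other in coding sequence, and whether reads that match several of them affected the level of Tuba4a was not tested.

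Kif1a encodes a kinesin-3 motor that carries synaptic vesicle precursors and dense-core vesicles along the axon. The row spans chr1:93015343-93101874 (minus strand, mm10, protein-coding). The authors' deposited table gave 43.4 FPKM in T2Isl1 and 48.8 FPKM in T2fx. Kif1a therefore stood at rank 94 of the tested rows in T2Isl1 and at rank 80 in T2fx. The log2 fold change was -0.17 in the authors' deposited table, with an unadjusted p of 0.142, the second smallest among the tested rows of these genes, and it did not pass.

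The dense-core vesicle genes were expressed at very different levels. Ptprn encodes IA-2, a phosphatase-like protein without enzyme activity in the membrane of these vesicles. At chr1:75247041-75264208 (minus strand, mm10, protein-coding), Ptprn had 6.90 FPKM in T2Isl1 and 7.27 FPKM in T2fx in the authors' deposited table, with -0.08 on the log2 scale and an unadjusted p of 0.559. Scg2 encodes secretogranin II, a granin of the vesicle core and the precursor of the neuropeptide secretoneurin. At chr1:79434669-79440109 (minus strand, mm10, protein-coding), Scg2 had 0.656 FPKM in T2Isl1 and 0.694 FPKM in T2fx in the authors' deposited table, which is -0.08 as a log2 fold change, with an unadjusted p of 0.824. Scg2 was thus barely above the levels at which rows went untested, the highest of which was 0.516 FPKM. It ranked 623 of 646 in T2Isl1 and 626 in T2fx.

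The bases before the RefSeq start of Scg2 (RefSeq, build GRCm38.p6, the mm10 assembly) are shown because they hold the only match among these genes to the full cAMP response element, TGACGTCA. Its palindrome reads the same on both strands, and it is printed in capitals 68 to 61 bases before that start, in chr1:79440027-79440276 on the minus strand. This start lies within the measured row, which takes in 83 of the 250 bases and the motif itself (chr1:79440087-79440094), and the GENCODE gene also reaches past the motif.
Scg2: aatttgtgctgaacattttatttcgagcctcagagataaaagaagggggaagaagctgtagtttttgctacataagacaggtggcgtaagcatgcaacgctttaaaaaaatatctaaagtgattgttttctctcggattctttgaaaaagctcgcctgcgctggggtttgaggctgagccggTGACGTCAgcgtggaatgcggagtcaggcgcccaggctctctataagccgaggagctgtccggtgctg
This motif was present in 1.55% of the 32851 RefSeq windows of the same 250 bases. RefSeq gave 13 such windows for the 9 genes. CAGCTG, a form of the E-box that is also palindromic, was present in 1 of them, that of Kif1a, and in 13.0% of all windows. The homeodomain core TAATTA, palindromic as well, was in none of the 13 and in 4.84% of all windows. No found motif overlapped another. A match describes letters and not binding.

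Rims1 encodes RIM1, which tethers vesicles and calcium channels at the active zone, and was the gene closest to equal in both genotypes. The upstream row (chr1:22468191-22806344, minus strand, mm10), nearest the start of the gene, had 6.73 FPKM in T2Isl1 and 6.63 FPKM in T2fx in the authors' deposited table, which is 0.02 as a log2 fold change, with an unadjusted p of 0.893. The downstream row (chr1:22285979-22432844) had 2.21 FPKM in T2Isl1 and 2.24 FPKM in T2fx, a log2 fold change of -0.02 with an unadjusted p of 0.919 in the authors' deposited table. When the groups were scaled without lens genes, the upstream row was below T2fx too, at -0.05. In FPKM the upstream row stood 3.05-fold above the downstream row in T2Isl1 and 2.96-fold above it in T2fx.

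The rows cover different parts of Rims1. Between them lies a gap of 35.3 kb that holds 2.85% of the annotated exon bases of the gene, while the upstream row holds 36.9% and the downstream row 60.2%. In GENCODE M21, 5 of the annotated transcripts run across both rows, 2 lie within the upstream row and 2 within the downstream row. The far end of the upstream row, at position 22468191, is that of a short annotated transcript. The full-length models are therefore not represented by a single row, and neither row gives the level of full-length Rims1.

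**Figure D2:**
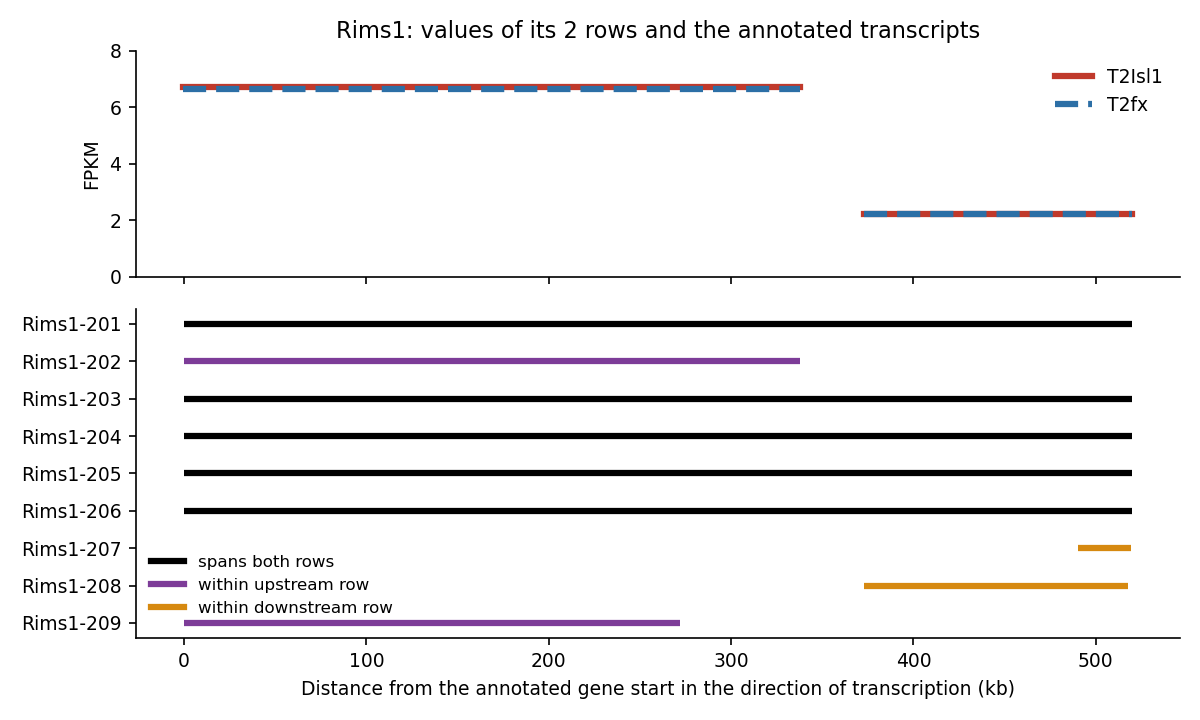
Upper panel, FPKM of the upstream and the downstream Rims1 row in T2Isl1 (solid) and T2fx (dashed); lower panel, extent of the annotated transcripts, both against distance from the annotated gene start (kb). The lines of both genotypes nearly coincide, at 6.73 and 6.63 FPKM upstream and at 2.21 and 2.24 FPKM downstream, and the black transcripts cross the gap between the rows.

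Syt2 encodes synaptotagmin 2, a fast calcium sensor of transmitter release. The row (chr1:134646681-134750048, plus strand, mm10, protein-coding) was listed without a test, at 0.291 FPKM in T2Isl1 and 0.389 FPKM in T2fx in the authors' deposited table. Its log2 ratio of -0.42 rests on values at the foot of the range. Of the 494 untested rows, 481 had a lower T2fx value, so Syt2 was among the higher of them. No statement on a difference is possible for it.

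Sphkap encodes an A-kinase anchoring protein that binds the type I regulatory subunit of protein kinase A and interacts with sphingosine kinase. The row spans chr1:83255450-83408299 (minus strand, mm10, protein-coding). The authors' deposited table gave 3.76 FPKM in T2Isl1 and 4.70 FPKM in T2fx, 19.9% less in T2Isl1. Its log2 fold change of -0.32 was the lowest of the tested rows of these genes, and 35 of the 646 tested rows were lower still. The unadjusted p of 0.0182 ranked 19 among the tested rows in the authors' deposited table, and the q-value was 1.00. With Benjamini-Hochberg adjustment over the tested rows analysed here the adjusted p was 0.617, so the difference did not pass in either case.

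The bases before the RefSeq starts of Map2 and Sphkap are set side by side because these genes had the highest level and the largest log2 fold change in size among the tested rows of the 9 genes. Capitals mark each CG pair (RefSeq, build GRCm38.p6, 250 bases each, chr1:66175079-66175328 on the plus strand for Map2 and chr1:83408201-83408450 on the minus strand for Sphkap). The measured row of Map2 takes in all 250 bases of its window, and that of Sphkap takes in 99.
Map2: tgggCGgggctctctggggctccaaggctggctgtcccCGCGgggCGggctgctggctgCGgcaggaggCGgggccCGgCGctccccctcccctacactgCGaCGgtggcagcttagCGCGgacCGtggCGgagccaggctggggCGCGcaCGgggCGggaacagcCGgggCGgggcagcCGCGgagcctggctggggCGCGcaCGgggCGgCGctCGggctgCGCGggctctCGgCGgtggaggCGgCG
Sphkap: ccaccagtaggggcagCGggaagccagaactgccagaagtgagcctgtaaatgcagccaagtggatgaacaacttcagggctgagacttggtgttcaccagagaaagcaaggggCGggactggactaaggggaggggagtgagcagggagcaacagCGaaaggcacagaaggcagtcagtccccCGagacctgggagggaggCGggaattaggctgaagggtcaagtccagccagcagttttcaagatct
Map2 has 34 CG pairs and a GC content of 81.2%, and Sphkap has 5 pairs and 57.6%. The median RefSeq window has 6 pairs and 52.4% GC. Of the 13 windows of the 9 genes, 10 were above that median in CG pairs, with a range of 1 to 34. These are descriptions of sequence, and no relation to the values was tested.

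**Figure D3:**
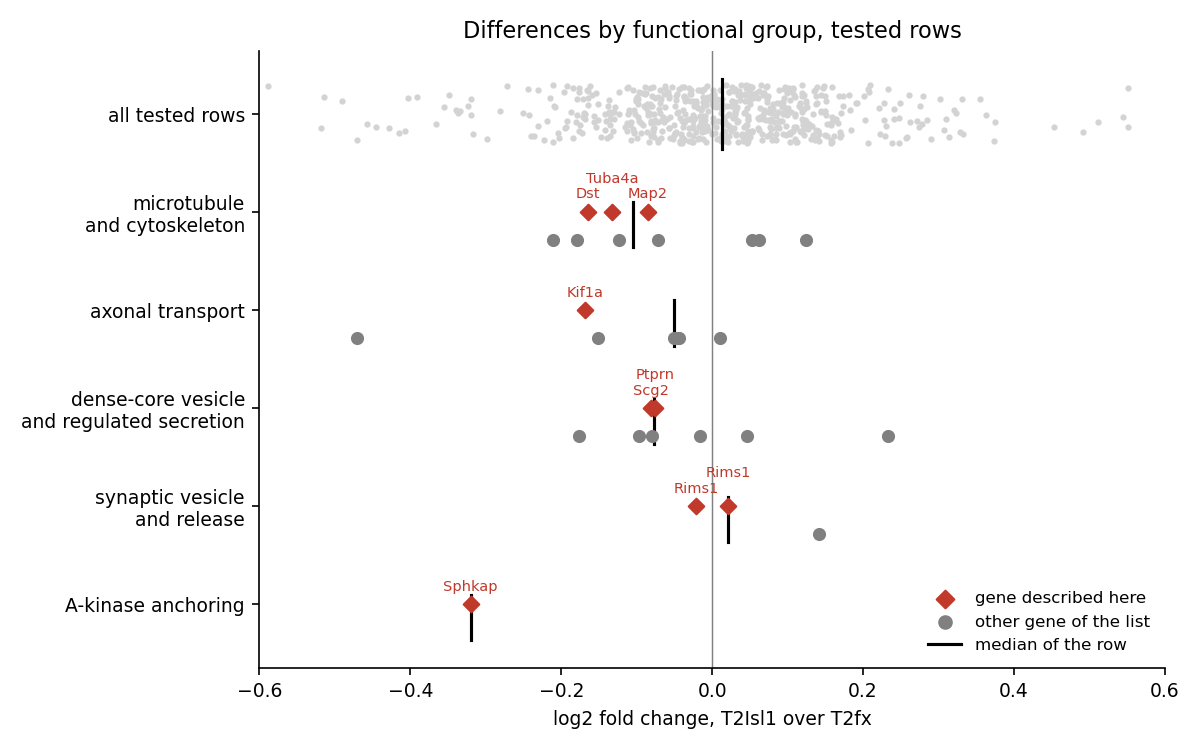
log2 fold change (T2Isl1 over T2fx) of tested rows, with the genes described here as diamonds above the other genes of each pathway list and black bars at the medians; the top strip shows all tested rows but the 20 beyond 0.6 in either direction. Sphkap lies at -0.32, the Rims1 rows at 0.02 and -0.02, and the remaining diamonds between -0.17 and -0.08; the Rims1 row above 0 turned negative when scaled without lens genes.

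Other genes of the same pathways, taken from 5 lists, held no call, against 1.55% of all tested rows. At so low a background, 0 calls among them says little. The other genes tested numbered 20, 7 above and 13 below T2fx, with a median log2 fold change of -0.05 against 0.01 over all tested rows. Among 7 other microtubule and cytoskeleton genes, 4 were below and 3 above. Nav1, a neuron navigator protein of microtubule ends, had 5.29 FPKM in T2Isl1 and 6.12 FPKM in T2fx in the authors' deposited table, which is -0.21 as a log2 fold change. Clasp1, which stabilises growing microtubule ends, had 24.5 FPKM in T2Isl1 and 27.8 FPKM in T2fx in the authors' deposited table. A further Clasp1 row at the same coordinates was listed without a test, at 0 in both genotypes. Camsap2, which caps microtubule minus ends, had a log2 fold change of -0.12 and the tubulin glutamylase gene Ttll4 one of -0.07 in the authors' deposited table. On the other side, Cdk5r2, an activator of the neuronal kinase Cdk5, had 0.05, and the actin branching genes Arpc2 and Arpc5 had 0.06 and 0.12 (log2, authors' deposited table).

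Of the 6 other tested genes in the axonal transport list, 5 were below T2fx and 1 above. A place in the list does not show that a gene serves axonal transport in these cells. Kif21b, a neuronal kinesin, had 21.8 FPKM in T2Isl1 and 24.3 FPKM in T2fx in the authors' deposited table, which is -0.15 as a log2 fold change. Kif26b, an atypical kinesin, had the largest difference of the lists in the authors' deposited table, with 1.74 FPKM in T2Isl1 and 2.41 FPKM in T2fx. In the authors' deposited table its log2 fold change was -0.47, and it did not pass (q = 0.178, unadjusted p = 0.0012). Adjusted over the tested rows analysed here alone, its Benjamini-Hochberg p was 0.0646 in place of that q-value. The kinesin-2 subunit gene Kifap3, the mitochondrial adaptor gene Trak2 and the vesicle transport GTPase gene Arl8a had log2 fold changes of -0.04, -0.05 and -0.05, and the liprin gene Ppfia4 had 0.01 in the authors' deposited table.

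Dense-core vesicle and secretion genes outside the 9 numbered 6, with 4 below and 2 above. Resp18, a vesicle protein related to IA-2, had 12.1 FPKM in T2Isl1 and 13.7 FPKM in T2fx in the authors' deposited table, which is -0.18 as a log2 fold change. Pam, the enzyme that amidates neuropeptides, had 21.0 FPKM in T2Isl1 and 20.3 FPKM in T2fx in the authors' deposited table. Ica1l had the highest log2 fold change of the lists, 0.23, at 1.16 FPKM in T2Isl1 and 0.990 FPKM in T2fx in the authors' deposited table. Stx6, Rab3gap1 and Rab3gap2 lay between -0.10 and -0.02 on that scale. Of the synaptic release list the only other tested gene was Rabif, which binds Rab GTPases of secretion, with 21.9 FPKM in T2Isl1 and 19.9 FPKM in T2fx in the authors' deposited table. Sphkap was the only tested gene of the anchoring list.

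Several of the 9 genes have long annotated transcripts. With the 611 tested rows of known length split into 5 groups by the longest annotated transcript, Dst, Kif1a, Sphkap and both Rims1 rows fell in the group of 6.45 kb and more, although neither Rims1 row covers the full transcript. In that group 78.0% of all rows were below T2fx and the median log2 fold change was -0.08, so lower values of such genes are common there. Map2, at 6.26 kb, was in the next group, with a median of -0.01. Ptprn, at 3.55 kb, was in a group with a median of 0.05, and Tuba4a and Scg2, at 2.84 kb and 2.52 kb, were in one with 0.04. Measured from the median of the own length group, 7 of the 9 rows were below and 2, both of Rims1, above. Sphkap was then at -0.24, Tuba4a at -0.18, Scg2 at -0.13, Ptprn at -0.12, Kif1a and Dst at -0.09 and Map2 at -0.08. The 6.446 kb given to both Rims1 rows is the lower edge of their group, and the next group ends at 6.442 kb. Against the median of that next group, -0.01, the downstream Rims1 row at -0.02 would be below. The part of length in these values was not tested.

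**Figure D4:**
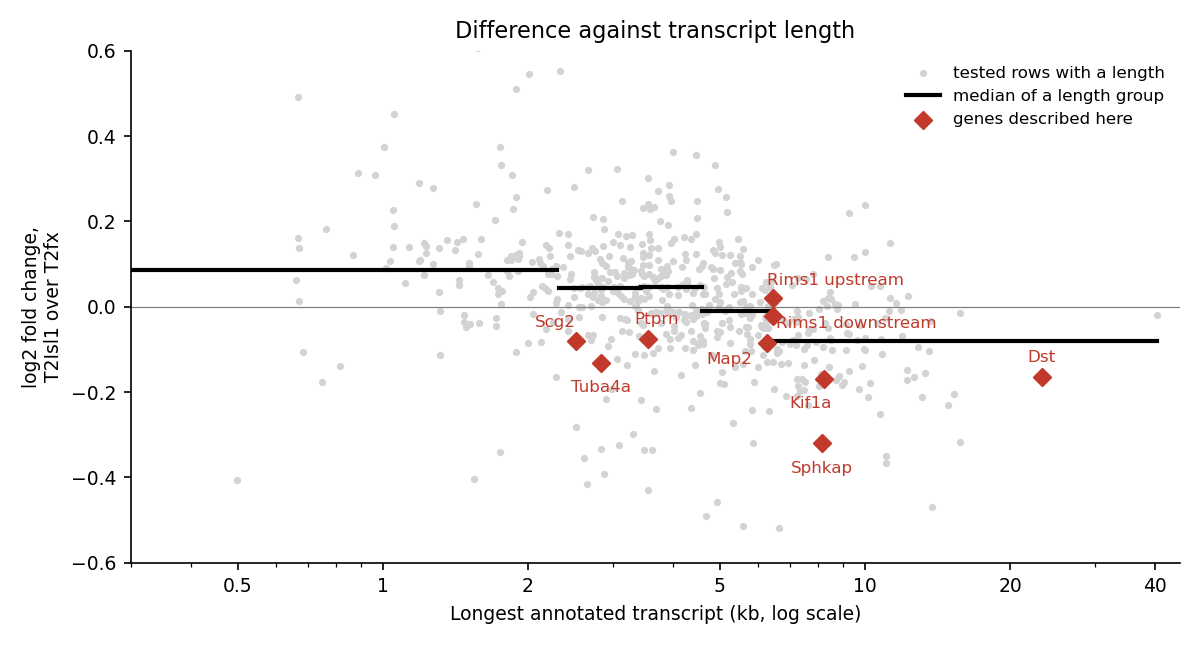
log2 fold change (T2Isl1 over T2fx) against the longest annotated transcript (kb, log axis) of tested rows, with the 9 rows of the genes described here as diamonds and a bar at the median of each length group; rows outside the axes are not drawn. The bars go from 0.09 for the shortest to -0.08 for the longest transcripts, and Sphkap at -0.32 is the diamond farthest below its bar.

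Tuba4a and Ptprn lie close together on chromosome 1, 27.4 kb apart with Dnajb2 between them, and Resp18 lies 7.99 kb from Ptprn. Within 100 kb of Ptprn, 13 rows were tested, itself included, of which 7 were above and 6 below T2fx and 0 were called at a q-value under 0.05, with 0 also at an unadjusted p-value under 0.05. Their log2 fold changes ran from -0.18 for Resp18 to 0.18 for Stk16 in the authors' deposited table. The vesicle genes Ptprn and Resp18 were thus both below, while Dnajb2, 1.35 kb from Ptprn, was above, with 26.6 FPKM in T2Isl1 and 25.3 FPKM in T2fx in the authors' deposited table. The remaining rows there, Fam134a, Cnppd1, Abcb6, Dnpep, Ankzf1, Zfand2b, Atg9a and Glb1l, lay between -0.09 and 0.11 on the log2 scale. Unc80, the tested row near Map2, was at -0.10, and near Dst, besides Bend6, Bag2 was at 0.23 and Zfp451 at -0.01 (log2, authors' deposited table). Around Kif1a, the 2 tested rows within 100 kb, Capn10 and a row joining Dusp28 and Rnpepl1, were both above T2fx, and around Syt2 the 2 tested rows, Kdm5b and Ppp1r12b, were both below, at -0.17 and -0.16 as log2 fold changes of the authors' deposited table. No other row within 100 kb of Scg2 or Sphkap was tested.

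**Figure D5:**
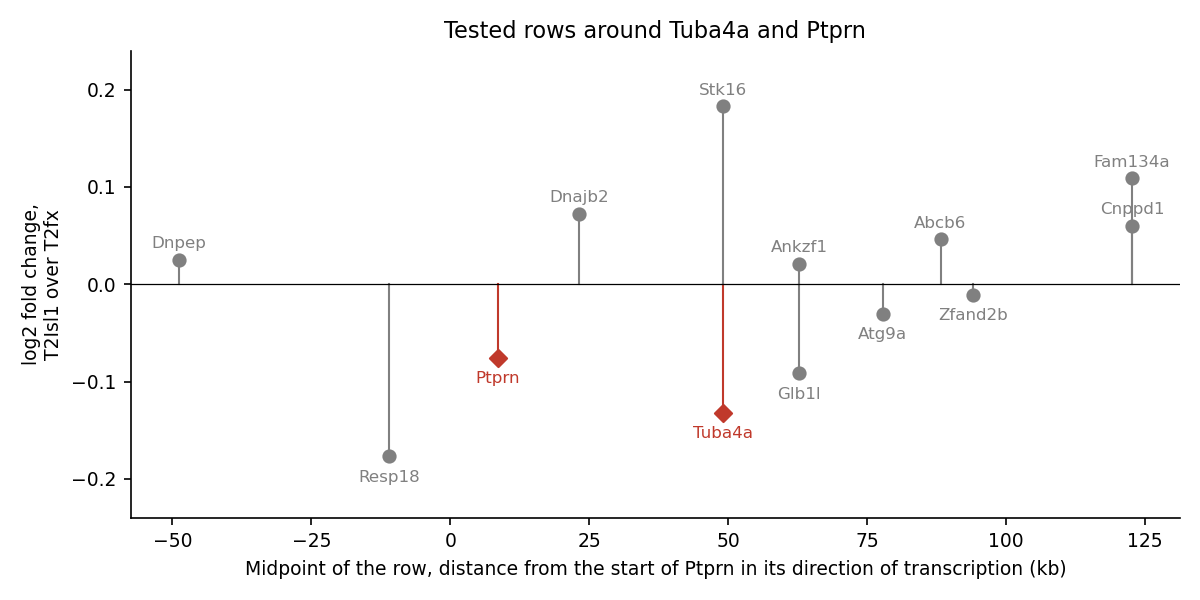
log2 fold change (T2Isl1 over T2fx) of the 13 tested rows within 100 kb of Ptprn, against the distance of the row's midpoint from the start of Ptprn (kb); diamonds mark Tuba4a and Ptprn. Rows on both sides of 0 are interleaved, from -0.18 for Resp18 to 0.18 for Stk16.

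Markers of other tissues differed between the groups in the same table. All 7 tested lens genes were called lower in T2Isl1, with a sum of 93.6 FPKM in T2Isl1 and 1038 FPKM in T2fx over the 8 of 14 list genes with a row, Lgsn being at 0 in both. The muscle list summed to 30.4 FPKM in T2Isl1 and 33.7 FPKM in T2fx over 10 of 16 genes, with Chrnd at 0 in both and 1 of 5 tested genes, Chrng, called lower. Nearly all of that sum was Obsl1 and Speg, and the other 8 genes, set apart after their values were seen, summed to 1.46 FPKM in T2Isl1 and 4.22 FPKM in T2fx. The mesenchyme and vessel list summed to 29.4 FPKM in T2Isl1 and 38.7 FPKM in T2fx over 9 of 14 genes, with 1 of 6 tested genes, Col3a1, called lower. In the authors' deposited table Col3a1 had 0.637 FPKM in T2Isl1 and 5.76 FPKM in T2fx. Rgs5 had 7.18 FPKM in T2Isl1 and 7.55 FPKM in T2fx in that table. Only Cd34 of this list was above T2fx, with 6.86 FPKM in T2Isl1 and 6.66 FPKM in T2fx. The 7 of 22 retinal neuron and progenitor markers with a row, none of them at 0, summed to 550 FPKM in T2Isl1 and 522 FPKM in T2fx, with 0 called. The highest of them was Hes6, a transcription regulator of differentiating neural cells, with 414 FPKM in T2Isl1 and 380 FPKM in T2fx in the authors' deposited table. Only Hes6 and Rxrg of these 7 were above T2fx and 5 were below, and without Hes6, a choice made after its value was seen, the sum was 136 FPKM in T2Isl1 and 143 FPKM in T2fx. Among the 5, Tfap2b, an amacrine and horizontal cell factor, had 13.6 FPKM in T2Isl1 and 16.9 FPKM in T2fx in the authors' deposited table, with an unadjusted p of 0.008, and did not pass. Scaling the groups to their chromosome 1 totals without lens genes shifted every log2 fold change by -0.07. The part of these tissues in the values of the 9 genes was not tested.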

How the data were processed

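Total RNA of 6 libraries, 3 of T2Isl1 and 3 of T2fx retinas, was compared, with groups from the sample labels. Per the submitters' processing notes, the authors used CASAVA, TopHat2 2.1.1, Cufflinks 2.1.1 and the mm10 build. Their gene annotation is not given in the sources used. Per the file headers, the table is laid out like Cuffdiff output, with 1 FPKM value per gene and group in which the authors had combined the libraries. FPKM is inferred from the tool named, as the header gives no unit. The authors' log2 fold change, p-value and q-value were used as deposited, and their test score was not used. The log2 fold change was T2Isl1 over T2fx, and it matched the group values to within 1.06e-05. All rows analysed are of chromosome 1: 1140 complete rows, with 1 incomplete row at the end of the table left out, and other chromosomes were not analysed here. Starts were raised by 1 to count from 1.

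No test of single genes was added, since values per library were not used here, and depth per library is unknown. Called means an authors' q-value under 0.05. Whether pools shared litters is not given, so the authors' p-values may measure technical spread. The 9 genes, 5 pathway lists and 4 marker lists were chosen with earlier results of these data known, as was the rule to name every row of the 9 genes, of the lists and of tested neighbours within 100 kb; the motifs were chosen after the values were seen. Transcript length is that of the longest GENCODE M21 (mm10) transcript, found for 611 of 646 tested rows (94.6%). Tables were made with Python 3.11.15 and pandas 2.3.3, and the functions were tested on simulated data. Alternatives covered q-value thresholds, adjustment, pseudocounts, floors, scaling, length and repeated names. A result for 1 further gene of the lists is not reported here.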

Additional observations from a re-analysis of the deposited data

How the results depend on the processing

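Values per library were not used here, so leaving out a replicate was not possible. No paired analysis was possible because each genotype has a single value that bears no library number. The count of called rows among the 9 genes was 0 at q-value thresholds of 0.05, 0.01 and 0.1 and with Benjamini-Hochberg adjustment over the rows analysed here, and 1 (Sphkap) at an unadjusted p-value under 0.05. Over all 646 tested rows it was 10 at 0.05, 0 at 0.01 and 24 at an unadjusted p-value under 0.05. It was 11 there both at 0.1 and with Benjamini-Hochberg adjustment. At so low a background, the 0 calls among the 9 genes say little. Even strongly lower rows such as Cryga, Cryba2 and Col3a1 shared the same authors' unadjusted p of 5e-05 and q of 0.0116. No tested row passed 0.01, so the 0 at that threshold says nothing about the 9 genes. The upstream Rims1 row turned to -0.051 with groups scaled without lens genes, and the downstream row to 0.058 when centred within its length group; both are shifts by construction. Sphkap stayed between -0.39 and -0.24 over its alternatives. The median of the 9 rows stayed between -0.16 and -0.08, the lowest with scaling without lens genes. This range includes the settings chosen after seeing the data, with the untested Syt2 row or without Dst and Tuba4a. Dst shares its locus with Bend6, and Tuba4a shares its own with Stk16. The list medians moved by less than 0.1 on the log2 scale, and all kept their sign except that of the synaptic release list, which is the upstream Rims1 row itself and turned to -0.051 when scaled without lens genes, a setting chosen for medians after seeing the data. The number of reads behind low rows such as Scg2 is unknown.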
